A study of Mus musculus with 16 samples.

Results

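The neurofilament and axonal cytoskeleton mRNAs described here are the 10 genes Nefl, Nefm, Nefh, Ina, Prph, Mapt, Map1b, Tubb3, Stmn2 and Uchl1, chosen by gene symbol from 21878 mRNAs. They were measured by RNA-seq in brain microglia, sorted as CD11b+ and CD45int cells, of 8 mice with experimental autoimmune encephalomyelitis (EAE) and 8 PBS-treated mice, with 1 stranded library per mouse made from total RNA after removal of ribosomal RNA. All mice were C57BL/6 females of wild-type genotype, 8 weeks old per the methods of the study. EAE mice received MOG peptide (residues 35 to 55 per the protocol, although 1 label field gives each mouse another last residue, from 55 to 62) in complete Freund's adjuvant under the skin and 200 ng of pertussis toxin per intraperitoneal dose, and brains were taken at the peak of disease. The PBS mice were given PBS by the same protocol, per the methods, which do not say whether adjuvant or toxin went with it, so that MOG peptide, adjuvant, toxin and disease cannot be told apart. EAE is an induced model of multiple sclerosis in which immune cells directed at myelin enter the central nervous system.

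Neurofilaments are intermediate filaments that fill the axons of neurons and set their calibre. They assemble from a light, a medium and a heavy subunit (Nefl, Nefm and Nefh), together with alpha-internexin (Ina) in central neurons or peripherin (Prph) in neurons that project to the periphery. Neurofilament light protein released from damaged axons is measured in blood and cerebrospinal fluid as a marker of axonal injury, including in multiple sclerosis. The remaining genes belong to the microtubule side of the axon. Mapt encodes tau and Map1b encodes a microtubule-associated protein of another family, Tubb3 is the neuronal beta-tubulin, Stmn2 is a regulator of microtubule dynamics in growing axons, and Uchl1 is an abundant neuronal deubiquitinase. None of these 10 genes is a microglial marker.

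The libraries held 24587443 to 30244215 counts in EAE mice and 26031889 to 34184576 in PBS mice. The raw counts were compared by the quasi-likelihood test of edgeR with TMM scaling, which rescales each library so that most mRNAs are level between libraries, and an mRNA was called at a Benjamini-Hochberg adjusted p under 0.05. Of 17885 mRNAs tested, 315 (1.76%) were lower and 118 (0.66%) were higher in EAE mice. Nothing in the sources used here ties a library to more than 1 mouse, and litter and cage are not given. Libraries EAE 6, EAE 7, EAE 8, PBS 5, PBS 7 and PBS 8 had been found in earlier work on these data to be more alike than the rest. They are treated as a possible batch, although no label names one. Because they were picked for their likeness, the spread among them is small by selection, and fold changes within them are given without a p-value.

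The labelled cell type was checked first. Over 17 microglial marker genes the summed FPKM (fragments scaled for the length of the transcript and for the depth of the library) ranged from 225 to 360 in EAE libraries and from 209 to 339 in PBS libraries, and no marker was at 0 in every library. Over 15 neuronal marker genes it ranged from 2227 to 2806 in EAE mice and from 2662 to 2794 in PBS mice. The most abundant microglial marker was C1qb, a complement component, with a mean of 62.6 FPKM over the 16 libraries. Nefl, Map1b and Uchl1 each exceeded all 17 microglial markers in 16 of 16 libraries, and Tubb3 did so in 11 of 16. The libraries labelled as microglia held neuronal mRNA at levels per length above those of the cells named in the label. In such bulk samples, fewer cells of a type and less RNA per cell cannot be told apart.

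The 10 mRNAs differed widely in level. Map1b had the highest mean FPKM over the 16 libraries (154), followed by Uchl1 (139), Nefl (110), Tubb3 (70.9), Stmn2 (57.5), Mapt (49.7), Ina (28.8), Nefm (27.1), Nefh (8.75) and Prph (0.403). The ranges of neighbours in this order did not overlap between Nefl and Tubb3, between Mapt and Ina, between Nefm and Nefh, and between Nefh and Prph. The ranges of the remaining neighbours overlapped, and Map1b was above Uchl1 in 12 of 16 libraries. Among all mRNAs ordered by FPKM, Map1b stood between places 112 and 183, Uchl1 between 134 and 204, and Nefl between 193 and 287. Comparisons between genes depend on the transcript lengths behind the FPKM values: the deposited counts and FPKM of Nefl imply a length of 2009 bases, against 3380 bases of annotated exons, and those of Stmn2 imply 1904 against 5602 bases.

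The promoters of Ina, Prph and Map1b are shown because they were the ones with a usable window, and they include the lowest (Prph) and the highest (Map1b) of the 10 mRNAs. They are the 250 bases before the RefSeq start on GRCm38.p6, on the strand of the gene. RefSeq windows were found for 5 of the 10 genes, and those of Tubb3 and Uchl1 are not shown because they run into annotated exons. Capitals mark TATAAA or GGGCGG on either strand, so that GGGCGG on the opposite strand reads CCGCCC.
Ina, chr19:47014431-47014680, + strand: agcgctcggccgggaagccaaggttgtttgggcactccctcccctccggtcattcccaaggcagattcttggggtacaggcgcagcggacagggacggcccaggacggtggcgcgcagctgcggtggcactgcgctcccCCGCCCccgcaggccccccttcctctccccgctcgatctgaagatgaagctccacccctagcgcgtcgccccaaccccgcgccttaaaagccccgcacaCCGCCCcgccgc
Prph, chr15:99054924-99055173, + strand: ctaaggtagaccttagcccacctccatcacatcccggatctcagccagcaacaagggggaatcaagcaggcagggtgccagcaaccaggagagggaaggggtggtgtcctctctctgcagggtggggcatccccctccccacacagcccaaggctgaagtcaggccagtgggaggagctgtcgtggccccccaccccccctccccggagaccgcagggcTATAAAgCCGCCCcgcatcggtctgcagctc
Map1b, chr13:99516603-99516852, - strand: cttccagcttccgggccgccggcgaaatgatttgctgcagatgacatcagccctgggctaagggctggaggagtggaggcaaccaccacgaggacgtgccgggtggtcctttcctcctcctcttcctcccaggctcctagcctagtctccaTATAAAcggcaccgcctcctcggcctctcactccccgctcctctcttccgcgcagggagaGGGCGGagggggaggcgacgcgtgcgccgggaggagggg
TATAAA began 31 bases before the start in Prph and 99 bases before it in Map1b, and it was not in the window of Ina. GGGCGG lay 24 bases before the start in Prph, 39 in Map1b, and 111 and 12 in Ina. Over 32851 promoter windows of this length, 12.4% held TATAAA and 32.7% held GGGCGG. The GC content was 70.8% in Ina, 65.2% in Prph and 66.4% in Map1b, with 25, 7 and 19 CG pairs, respectively.

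Of the 10 genes, Nefh was the only one called in the edgeR test, and it was lower in EAE mice. No member was called higher, and none had an absolute log2 fold change over 1, which 21 of all mRNAs had in addition to the adjusted p. The background called lower is 1.76% of all mRNAs, and from 1 of 10 nothing is read about the group. At an unadjusted p under 0.05, 4 members (Nefh, Tubb3, Ina and Nefl) were lower and 0 were higher, where 9.52% of all mRNAs were lower. The log2 fold change was below 0 for 8 of 10 members with a median of -0.11, and below 0 for 47.3% of all mRNAs with a median of 0.01. Among the 6128 mRNAs at least as abundant as Nefh, 275 (4.49%) were called lower, 59.7% had a log2 fold change below 0, and the median was -0.03.

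**Figure D1:**
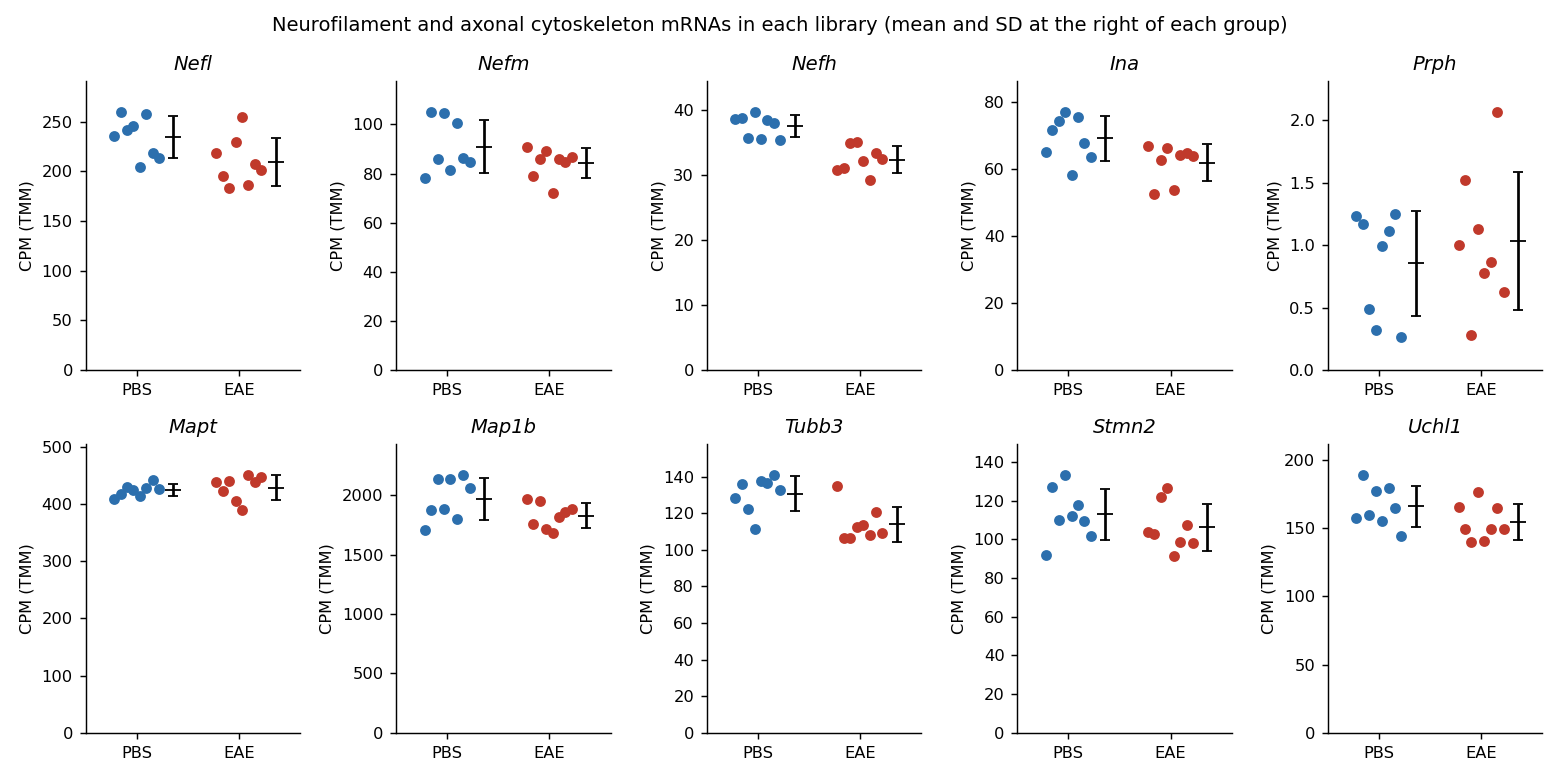
CPM after TMM normalization (counts scaled to a common library size, linear axis from 0) of the 10 mRNAs in each of the 8 PBS libraries (blue) and 8 EAE libraries (red), with the mean and SD of each group. Nefh is the only one whose EAE values (29.2 to 35.1 CPM) all lie below the PBS values (35.4 to 39.7 CPM), and Prph stays at or under 2.06 CPM.

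Nefh encodes the heavy neurofilament subunit, whose long side arms carry many phosphorylation sites. Its level was 29.2, 32.4 and 35.1 CPM (lowest, median and highest) in EAE mice and 35.4, 38.3 and 39.7 CPM in PBS mice. EAE 6 was the lowest and EAE 4 the highest EAE library, and every EAE library was below every PBS library, as it was for 54 (0.302%) of the 17885 mRNAs. The FPKM of the authors are scaled by library totals, without TMM factors. These factors were 1.005 to 1.032 in EAE and 0.960 to 0.997 in PBS libraries, and a higher factor lowers the CPM. On the FPKM scale, the means were 8.26 ± 0.518 (SD, n = 8) in EAE mice and 9.24 ± 0.425 (SD, n = 8) in PBS mice. There the groups overlapped, with the highest EAE value at 8.97 and the lowest PBS value at 8.68. On the log2 scale, Nefh fell by 0.21 in EAE mice (SE 0.051), a change of -13.7% with adjusted p = 0.0293 in the edgeR quasi-likelihood test with Benjamini-Hochberg adjustment. The direction was the same in 29 of 29 alternative settings. The call was lost with upper-quartile factors (adjusted p = 0.0540), with library totals only (0.0938), with limma on FPKM (0.0896 and 0.0852 with pseudocounts of 0.1 and 1) and in the 10 libraries outside the possible batch (0.239). Limma on FPKM shares the scaling by library totals, so these losses are not independent of each other. It was also lost when EAE 1 (0.0674), EAE 2 (0.0671), EAE 6 (0.0647), EAE 8 (0.0511), PBS 2 (0.0713) or PBS 7 (0.0576) was left out of the edgeR fit. Inside the possible batch the log2 fold change was -0.19, and with a term for these libraries it was -0.21 (adjusted p = 0.0197 in edgeR). The term rests on likeness in these same data, so this p-value is not read as a pass.

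Some neuronal markers were lower together with Nefh. Of 15 neuronal marker genes, 4 were called lower in EAE mice, namely Slc32a1 and Gad1 of inhibitory neurons and Syp and Syt1 of synaptic vesicles, 0 were called higher, and the median log2 fold change was -0.11, where 1.76% of all mRNAs and 4.49% of those at least as abundant as Nefh were called lower. Snhg11, a neuronal long RNA, had a log2 fold change of 0.19 (adjusted p = 0.172 in edgeR). The summed FPKM of the list had a median of 2651 in EAE mice and 2726 in PBS mice. Snhg11 held a large part of this sum, with a mean of 590 FPKM in EAE mice and 500 FPKM in PBS mice. Its higher mean in EAE mice offsets part of the lower values of other markers in the sum, where 13 of 15 log2 fold changes were below 0. As a share of this sum, Nefh was 0.268%, 0.308% and 0.369% (lowest, median and highest) in EAE mice and 0.314%, 0.339% and 0.362% in PBS mice. On this scale the groups overlapped, and 4 of 8 EAE libraries lay below the lowest PBS library. Among 17 markers of motor, cholinergic, monoaminergic and hindbrain neurons, 12 were tested, 2 were called lower (Slc18a3, the vesicular acetylcholine transporter, and Th, tyrosine hydroxylase), 0 were called higher, and 1 was at 0 in every library. At an unadjusted p under 0.05, 4 of the 12 were lower and 2 were higher (Slc18a2 at a log2 fold change of 0.25 and Isl1 at 0.32), and 8 were below 0. Of all mRNAs, 9.52% were lower at that threshold and 47.3% had a log2 fold change below 0. The part of neuronal content in the difference of Nefh was not tested.

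Nefl encodes the light subunit, on which neurofilament assembly depends. Its level was 183, 204 and 255 CPM (lowest, median and highest) in EAE mice and 204, 239 and 260 CPM in PBS mice. EAE 3 was lowest and EAE 5 highest in the EAE group, 4 EAE libraries were below the lowest PBS library, and the groups overlapped. The log2 fold change was -0.16 (SE 0.067, adjusted p = 0.207 in the edgeR test), with 106 ± 12.3 FPKM in EAE mice and 115 ± 9.68 FPKM in PBS mice (SD, n = 8 each). Nefl was called in 1 of 16 edgeR fits with 1 library left out, that without EAE 5, its highest EAE library (adjusted p = 0.0474). In these fits the adjusted p reached 0.365 (without PBS 2). Nefl was called in 0 of 13 other settings.

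Nefm, the medium subunit, was at 72.1, 85.9 and 90.7 CPM in EAE mice and 78.1, 86.2 and 105 CPM in PBS mice. Ina, alpha-internexin, was at 52.5, 64.0 and 67.0 CPM in EAE mice and 58.1, 69.7 and 77.0 CPM in PBS mice. The groups overlapped for both genes. Neither passed the edgeR test, with log2 fold changes of -0.11 (SE 0.066, adjusted p = 0.419) for Nefm and -0.16 (SE 0.065, adjusted p = 0.201) for Ina. Both log2 fold changes were 0.03 within the 6 most alike libraries, too small for a direction to be read there.

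Prph, which is typical of motor, sensory and autonomic neurons, had the lowest counts of the 10 mRNAs. Its counts ranged from 7 to 57 per library in EAE mice and from 8 to 42 in PBS mice. In CPM it was at 0.279, 0.930 and 2.06 in EAE mice and 0.262, 1.05 and 1.25 in PBS mice, and its highest library was 7.87 times its lowest. No EAE library was below the lowest PBS library. The log2 fold change was 0.27 with a wide 95% interval from -0.49 to 1.04 (adjusted p = 0.759 in edgeR).

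**Figure D2:**
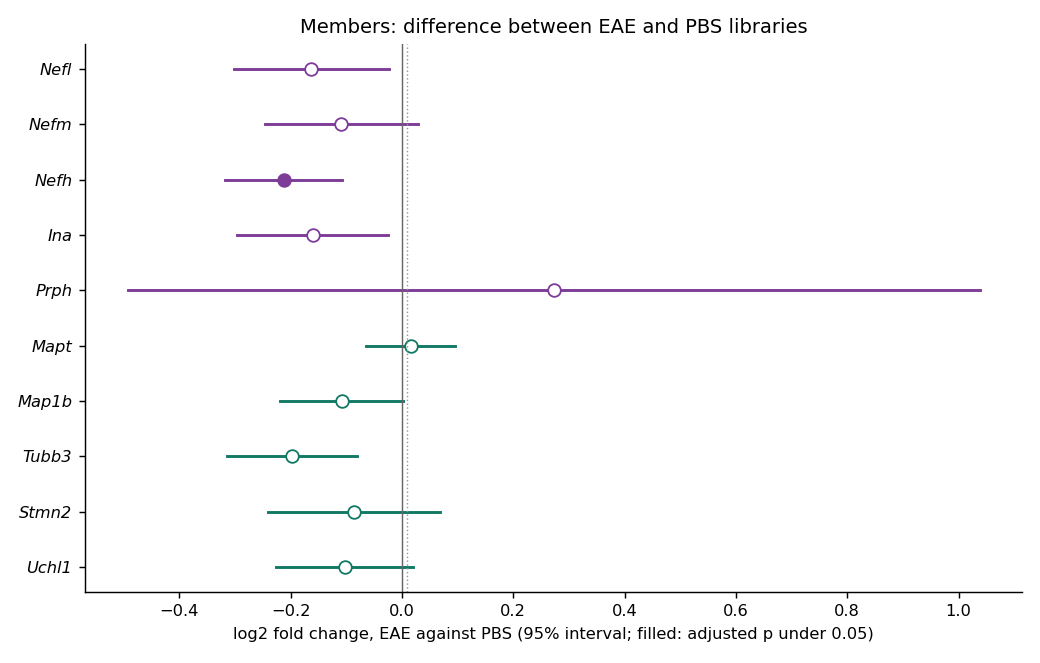
Log2 fold change of each of the 10 mRNAs, EAE against PBS, with its 95% interval from the edgeR fit (purple, neuronal intermediate filaments; green, microtubule and axon genes; filled, adjusted p under 0.05; dotted line, median of all mRNAs at 0.01). Only Nefh is filled, the intervals of Tubb3, Ina and Nefl also lie below 0, and Prph has the widest interval.

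The subunits were also compared within each library, as ratios of FPKM. Nefl over Nefm was 3.43, 3.91 and 5.69 (lowest, median and highest) in EAE mice and 3.78, 4.05 and 4.84 in PBS mice. EAE 5 had the highest ratio, and the groups overlapped. Nefm over Nefh was 2.77, 3.14 and 3.64 in EAE mice and 2.50, 2.97 and 3.35 in PBS mice. Ina over Nefm was close to 1 throughout, at 0.945, 1.05 and 1.09 in EAE mice and 0.971, 1.07 and 1.23 in PBS mice. Nefl made up 72.1% to 80.7% of the summed FPKM of the 3 neurofilament subunits in EAE mice and 74.3% to 77.6% in PBS mice, again with overlap.

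Nefl and Nefm are neighbours on chromosome 14 and share sequence on opposite strands. On GRCm38, GENCODE places Nefl at chr14:68083863-68089095 on the + strand and Nefm at chr14:68082590-68124846 on the - strand, so that the longest span of Nefm contains Nefl. Their exons share 1108 bases, 32.8% of the exon bases of Nefl and 19.2% of those of Nefm. The libraries were stranded, but the strand setting of the read counting is not given in the sources used here, so reads from the shared stretch may have been assigned to either gene or to none. The deposited counts and FPKM imply lengths of 2009 bases for Nefl and 3230 for Nefm, against 3380 and 5782 bases of GENCODE exons. The shared stretch may therefore lie partly or wholly outside the exons that were counted. Ina (chr19:47014698-47025327, + strand) shares 456 exon bases with Nt5c2 on the opposite strand, and Uchl1 (chr5:66676091-66687234, + strand) shares 295 exon bases with the antisense gene Uchl1os. Nefh (chr11:4938754-4948064, - strand) and Prph (chr15:99055174-99058978, + strand) overlap no other annotated gene.

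Tubb3, the tubulin isotype of neurons, was the closest to the threshold among the 5 microtubule and axon genes. It was at 106, 111 and 135 CPM (lowest, median and highest) in EAE mice and 112, 134 and 141 CPM in PBS mice. EAE 1 stood above the other 7 EAE libraries, 4 EAE libraries were below the lowest PBS library, PBS 4, and the groups overlapped. The log2 fold change was -0.20 (SE 0.056, 95% interval -0.31 to -0.08), and Tubb3 did not pass the edgeR test (adjusted p = 0.0639). It passed with DESeq2 (adjusted p = 0.0231). In edgeR it passed in 3 of 16 fits with 1 library left out, those without EAE 1 (0.0342), EAE 4 (0.0499) or PBS 4 (0.0213). With a term for the possible batch, the adjusted p in edgeR was 0.0462. That term rests on likeness in these same data, so this value is not read as a pass. Within the 6 most alike libraries the log2 fold change was -0.28, and in the other 10 libraries it was -0.15 (adjusted p = 0.547). Whether the effect differed between these sets of libraries was not tested.

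Map1b, which is most abundant in growing axons, was at 1679, 1836 and 1968 CPM in EAE mice and 1705, 1972 and 2172 CPM in PBS mice. Its log2 fold change was -0.11 (SE 0.053, adjusted p = 0.298 in edgeR). Within the 6 most alike libraries the log2 fold change was -0.20, and in the other 10 the adjusted p was 0.861 in edgeR. Mapt, the tau gene, was the steadiest of the 10 mRNAs, at 389, 438 and 451 CPM in EAE mice and 408, 425 and 442 CPM in PBS mice. The coefficient of variation of its CPM over the 16 libraries was 3.93%, and its log2 fold change was 0.02 (SE 0.039, 95% interval -0.06 to 0.10, adjusted p = 0.875 in edgeR).

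Stmn2 was at 91.3, 103 and 127 CPM in EAE mice and 92.0, 111 and 133 CPM in PBS mice. Uchl1 was at 140, 149 and 176 CPM in EAE mice and 144, 162 and 189 CPM in PBS mice. The groups overlapped for both. The log2 fold changes were -0.09 (SE 0.074, adjusted p = 0.591) for Stmn2 and -0.10 (SE 0.060, adjusted p = 0.393) for Uchl1 in the edgeR test.

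**Figure D3:**
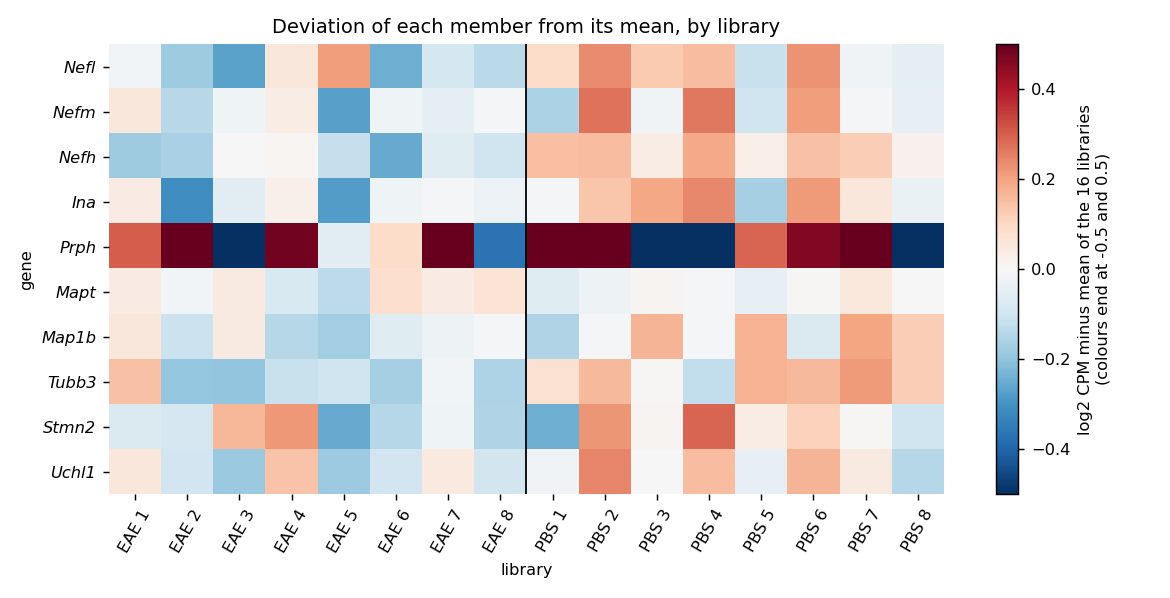
Deviation of each mRNA from its mean log2 CPM over the 16 libraries, one column per library (EAE left, PBS right of the line; red above, blue below the mean; colours end at -0.5 and 0.5). Nefh is at or below its mean in most EAE libraries and above it in every PBS library, Mapt is pale throughout, and Prph reaches the ends of the colour scale.

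Across the 16 libraries, the log2 CPM of Nefl was compared with that of each of the other 9 genes by permutation tests adjusted over the 9. With Nefh, Pearson's r was 0.60 and Spearman's rho 0.62 (permutation adjusted p = 0.0623 and 0.0394), and r was 0.62 without EAE 3 and PBS 2, the libraries farthest from the median of Nefl. With Uchl1, r was 0.61 and rho 0.64 (permutation adjusted p = 0.0623 and 0.0394), and r was 0.42 without EAE 3 and PBS 2. With Ina, r was 0.48 and rho 0.64 (permutation adjusted p = 0.145 and 0.0394), and r was 0.44 without the same libraries. Among EAE libraries r was 0.17 with Nefh, 0.26 with Uchl1 and -0.20 with Ina, against 0.67, 0.82 and 0.86 among PBS libraries. On the log2(FPKM + 0.1) scale none of these 3 rho passed (permutation adjusted p = 0.129 for Nefh, 0.118 for Uchl1 and 0.118 for Ina). With Mapt, r was -0.57 and rho -0.53 (permutation adjusted p = 0.0623 and 0.0820), r was -0.54 without these libraries, and it was -0.83 among EAE and -0.02 among PBS libraries. After removal of the group means, r was 0.35 for Nefh, 0.51 for Uchl1, 0.28 for Ina and -0.59 for Mapt. With Nefm, its partner in the filament, r was 0.36 and rho 0.39 (permutation adjusted p = 0.247 and 0.196), and r was 0.24 without EAE 3 and PBS 2. It was -0.41 among EAE and 0.74 among PBS libraries. With Map1b, r was -0.20 (permutation adjusted p = 0.504), and it was -0.57 among EAE and -0.64 among PBS libraries. As a description over the same libraries, Nefm varied most closely with Ina (r = 0.82), Uchl1 (r = 0.80) and Stmn2 (r = 0.78).

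Among the mRNAs outside the group whose log2 CPM was most like the mean of Nefl, Nefm and Nefh over the 16 libraries, of 14750 with a mean of at least 1 CPM, were Add1 (r = 0.94), Fbxo44 (0.94), Pcsk1n (0.93) and Tspan7 (0.91). Add1 encodes an adducin of the membrane skeleton and Pcsk1n a neuroendocrine proprotein convertase inhibitor. Within the groups, r was 0.83 to 0.89 for these 4 mRNAs. Of these, Tspan7 was called, with a log2 fold change of -0.28 (adjusted p = 0.0175 in edgeR). These values share libraries and scaling, and they describe likeness alone.

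Around the 10 genes, 49 further cytoskeletal and transport genes were read from 6 lists. Of these, 2 were called higher and 2 lower, and 33 had a log2 fold change below 0, with a median of -0.06. Of all mRNAs, 0.66% were called higher, 1.76% were called lower and 9.52% were lower at an unadjusted p under 0.05. Among those at least as abundant as Nefh, 59.7% were below 0. None of 9 microtubule-associated proteins and stathmins passed the edgeR test, and the smallest p-values were those of Map6 (log2 fold change -0.13, adjusted p = 0.152) and Map1a (-0.17, adjusted p = 0.196). At an unadjusted p under 0.05, 2 of these 9 were lower. None of 8 tubulins passed it either, although all 8 had a log2 fold change below 0 (median -0.10) and 3 had an unadjusted p under 0.05. Tuba4a was closest (-0.20, adjusted p = 0.0594), followed by Tubb4b (-0.17, adjusted p = 0.190). Among 6 ankyrins and spectrins of the axonal membrane skeleton, 0 passed, 1 had an unadjusted p under 0.05 and was lower, and the log2 fold change of Sptbn1 was -0.06 (adjusted p = 0.402).

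Among 10 axonal transport motor genes, 1 was called lower, and 9 had a log2 fold change below 0 (median -0.08). Of all mRNAs at least as abundant as Nefh, 4.49% were called lower and 59.7% were below 0. Dync1h1, the heavy chain of the dynein that carries cargo towards the cell body, was at 1539, 1658 and 1840 CPM (lowest, median and highest) in EAE mice and 1761, 1963 and 2056 CPM in PBS mice. On the log2 scale it fell by 0.20 (SE 0.047, adjusted p = 0.0265 in edgeR), and 5 EAE libraries were below the lowest PBS library. Among 8 growth cone genes, 1 was called lower, and 5 had a log2 fold change below 0 (median -0.07). Dpysl2, which encodes the tubulin-binding protein CRMP2, was at 620, 654 and 681 CPM in EAE mice and 665, 747 and 768 CPM in PBS mice, and 6 EAE libraries were below the lowest PBS library. On the log2 scale it fell by 0.17 (SE 0.040, adjusted p = 0.0322 in edgeR). The call of Dync1h1 was lost without EAE 1, 2 or 3 or PBS 2, 3, 5 or 7 (adjusted p up to 0.0668), and that of Dpysl2 without EAE 1, 2, 3, 6 or 8 or PBS 2, 3, 5, 7 or 8 (adjusted p up to 0.0835). Both calls were also lost with library totals (0.0686 for Dync1h1 and 0.106 for Dpysl2), with limma on FPKM (0.0925 and 0.0886 for Dync1h1, 0.135 and 0.128 for Dpysl2) and in the 10 libraries outside the possible batch (0.118 and 0.308), and that of Dpysl2 with upper-quartile factors (0.0609).

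Of 8 intermediate filament genes that are not typical of neurons, 2 were called higher, 0 were called lower, and 1 had a log2 fold change below 0 (median 0.10), against a background of 0.66% called higher. Gfap, the filament of astrocytes, was at 480, 596 and 652 CPM (lowest, median and highest) in EAE mice and 260, 384 and 542 CPM in PBS mice, and 5 EAE libraries were above the highest PBS library. On the log2 scale it rose by 0.50 (SE 0.12, adjusted p = 0.0312 in edgeR). Nes, which encodes nestin of progenitor and reactive cells, was at 7.51, 15.0 and 19.0 CPM in EAE mice and 5.89, 9.44 and 12.7 CPM in PBS mice, with 7 EAE libraries above the highest PBS library. It rose by 0.65 on that scale (SE 0.16, adjusted p = 0.0333 in edgeR). Within the 6 most alike libraries, the log2 fold change of Gfap was -0.05, and in the other 10 libraries it was 0.87 (adjusted p = 0.00196 in edgeR). The call of Gfap was lost without EAE 1, 2, 3 or 8 or PBS 1, 2, 3 or 6 (adjusted p up to 0.0720), and that of Nes without EAE 1, 2, 3, 6, 7 or 8 or PBS 1, 2, 3 or 5 (adjusted p up to 0.0779). The call of Gfap was also lost with robust estimation (0.0613), and that of Nes with limma on FPKM (0.0600 and 0.0525) and in the 10 libraries outside the possible batch (0.170).

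**Figure D4:**
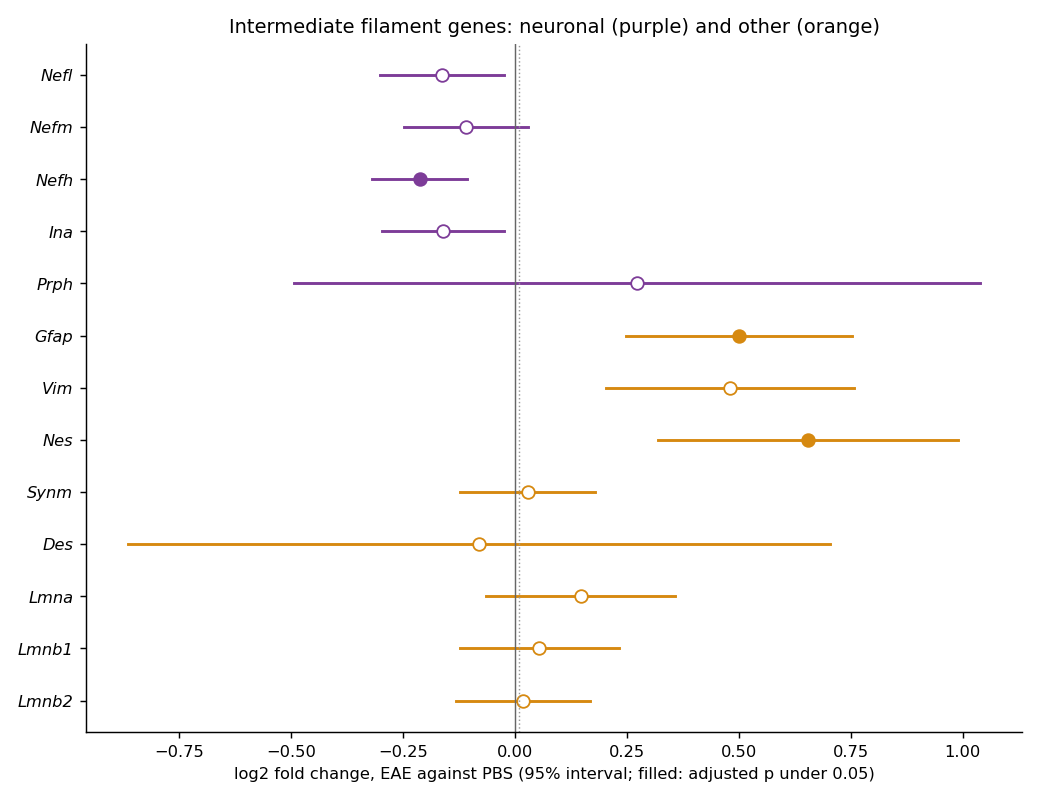
Log2 fold change, EAE against PBS, with its 95% interval from the edgeR fit for 5 neuronal (purple) and 8 other (orange) intermediate filament genes (filled, adjusted p under 0.05; dotted line, median of all mRNAs). Nefh lies below 0 at -0.21, Gfap (0.50) and Nes (0.65) lie above 0, and the nuclear lamins lie near 0.

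Markers of other brain cells were read in the same way. Of all mRNAs, 9.52% were lower at an unadjusted p under 0.05 and 47.3% had a log2 fold change below 0. Among those at least as abundant as Nefh, 59.7% were below 0. Of 8 astrocyte markers other than Gfap, 0 were called, 8 had a log2 fold change below 0, and 6 were lower at an unadjusted p under 0.05. Their summed FPKM was 1066 to 1647 in EAE mice and 1266 to 1555 in PBS mice. Of 8 oligodendrocyte markers, 0 were called and 7 had a log2 fold change below 0, with a summed FPKM of 932 to 1307 in EAE mice and 1030 to 1268 in PBS mice. Of 6 endothelial markers, 0 were called, and their summed FPKM was 39.6 to 60.6 in EAE mice and 34.3 to 59.3 in PBS mice. Of the microglial and neutrophil markers, 2 of 17 and 4 of 7 were called higher and 0 were called lower, beside 0.66% of all mRNAs called higher. The summed FPKM of the neutrophil markers was 23.1 to 64.1 in EAE mice and 9.31 to 24.0 in PBS mice. No defining marker of these lists was at 0 in every library, and the part of these cell types in the differences of the cytoskeletal genes was not tested.

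The scaling of the libraries set how many mRNAs were called in each direction. With TMM, 72.7% of the called mRNAs were lower in EAE mice, against 73.6% with RLE size factors, 58.8% with upper-quartile factors and 31.3% with library totals alone. The median log2 fold change of all mRNAs was 0.01, 0.01, 0.03 and 0.06, respectively. For Nefh it was -0.21, -0.21, -0.19 and -0.16, and 8 of 10 members had a log2 fold change below 0 under each of the 4 scalings.

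**Figure D5:**
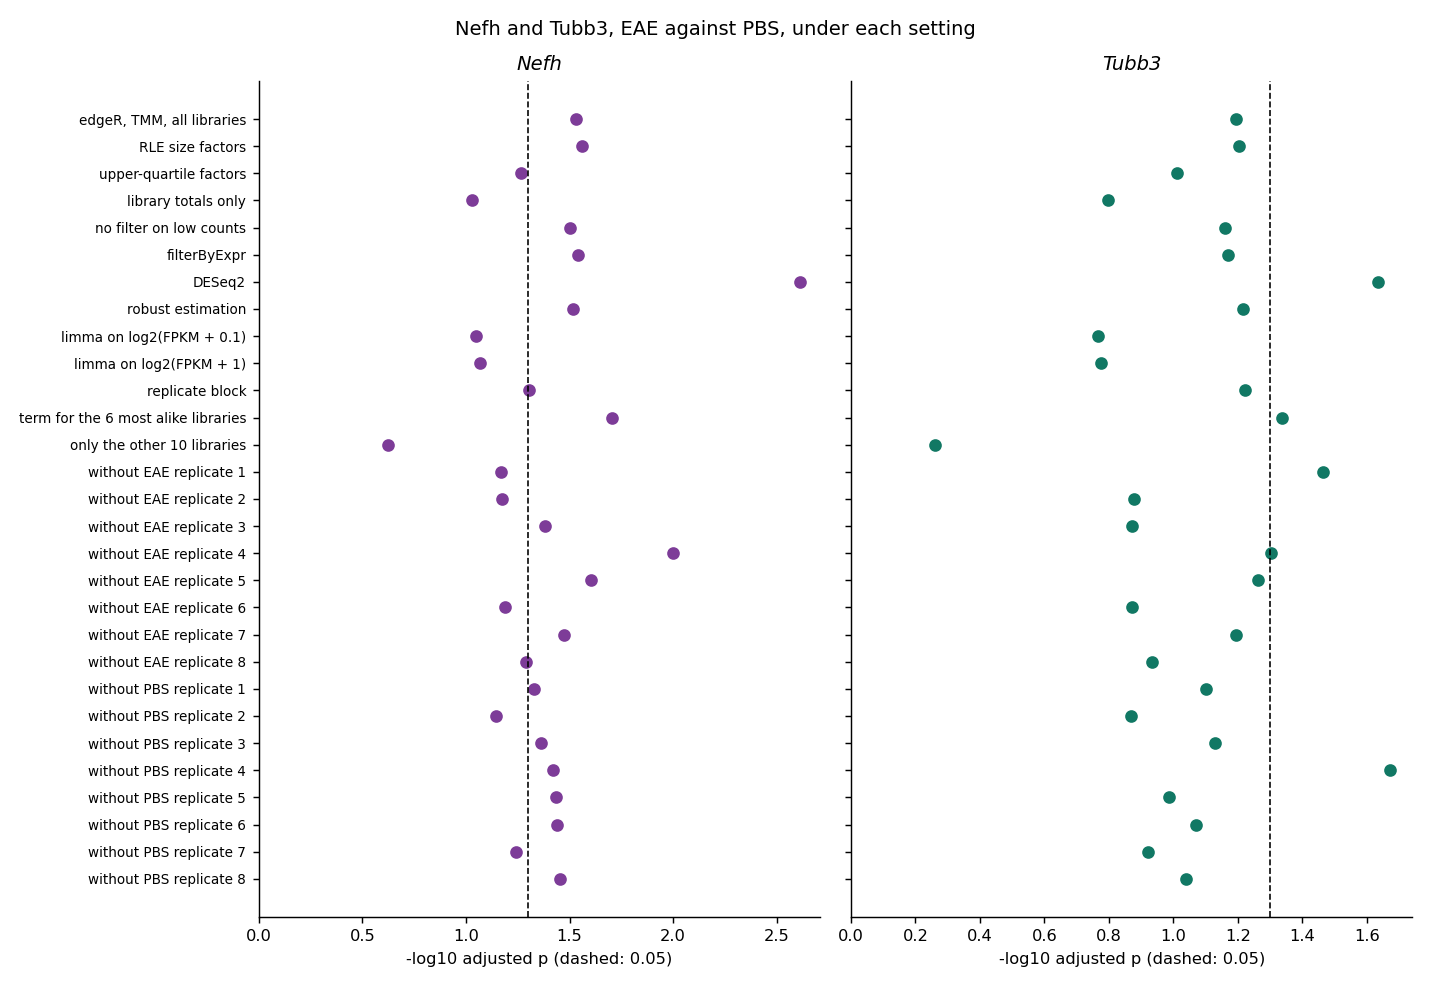
The -log10 of the adjusted p for Nefh (left) and Tubb3 (right), EAE against PBS, in the reported fit and in alternative settings, other than the 6 most alike libraries alone (one row each; dashed line, adjusted p of 0.05). Nefh falls short of the line with library totals (0.0938) and in the 10 libraries outside the possible batch (0.239), and Tubb3 passes it with DESeq2 (0.0231).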

How the data were processed

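Reads were aligned by the authors to GRCm38 (HISAT2 2.1.0) and counted per mRNA (HTSeq 0.11.2). The deposited tables hold raw counts and, separately, FPKM for 21878 mRNAs in 16 libraries. The annotation release and the strand setting are not given in the sources used here. Libraries were grouped as EAE or PBS by their labels (n = 8 each). An mRNA was kept at 16 or more counts over all libraries. The test was that of edgeR 4.0.16, run under R 4.3.3 (TMM, quasi-likelihood test, condition only, two-sided, Benjamini-Hochberg adjustment). This study's methods name edgeR for differential mRNAs and DESeq2 in another paragraph, so DESeq2 1.42.0 and limma 3.58.1 on log2(FPKM + 0.1) or log2(FPKM + 1) were alternatives. A fold change on the latter scales understates the change of low genes. Log2 CPM used a prior count of 2, and correlations used 100000 permutations (two-sided). The edgeR fit was also run on simulated counts with independent libraries and no batch. Changes as small as those of the members, other than no change, were not simulated, so that run does not cover them. Intervals and p-values cover the spread between these mice.

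The members and the wider lists were chosen with earlier results of these data known. From each wider list, the called genes (at most 5) or else the 2 genes with the smallest p were named, except for results that are not reported here, and overlapping genes were read from the GENCODE annotation of GRCm38. Markers named beside a result, and the count of 4 members with an unadjusted p under 0.05, were named after their values were seen.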

Additional observations from a re-analysis of the deposited data

Results flagged for a closer look

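Over 26 groups of 8 libraries checked, 2 values stood farther from the rest of their group than Dixon's 95% critical value allows. Chance gives about 1 in 20 groups, so 2 of 26 is near the chance rate. The FPKM of Tubb3 in EAE 1 was 79.9, the highest of its group, and its gap to the next EAE library was 0.573 of the range of the group. The Nefl over Nefm ratio of FPKM in EAE 5 was 5.69, also the highest of its group, with a gap of 0.690 of the range. In EAE 5, Nefl had its highest EAE level (129 FPKM) and Nefm its lowest (22.8 FPKM), and the summed FPKM of the neuronal markers was the lowest of the 16 libraries (2227). The same library had the highest summed FPKM of the astrocyte markers (1647), oligodendrocyte markers (1307) and axonal transport motor genes (1868) of the 16.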

How the results depend on the processing

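The number of mRNAs called lower was 187 with upper-quartile factors, 103 with library totals, 73 and 80 with limma on FPKM (pseudocounts of 0.1 and 1), 602 with DESeq2, 526 with a term for the possible batch, 2251 within its 6 libraries and 5 in the other 10. The number called higher was 226 with library totals, 297 with DESeq2, 242 with the batch term, 1896 within the 6 libraries and 8 in the other 10. Of the 10 members, 0 were called lower with upper-quartile factors, library totals, limma or the other 10 libraries, 2 with DESeq2 or the batch term and 3 within the 6 libraries. When each library was left out in turn, 104 to 815 mRNAs were lower, 39 to 502 were higher, and 0 to 2 members were lower. In the reported fit, 315 (1.76%) of 17885 mRNAs and 1 of the 10 members were lower. Such counts of members depend on how many of all mRNAs are called in the same setting. Nothing is read from them about the members. Within the 6 libraries the log2 fold change was 0.027 for Nefm, 0.025 for Ina, 0.00061 for Uchl1, 0.014 for Sptbn1 and -0.047 for Gfap, and in the other 10 it was -0.017 for Mapt. The signs differ from those of the reported fit, but the values are small, and no reversal is read from them. On the log2(FPKM + 0.1) scale, Nefl and Mapt had r = -0.73 (permutation adjusted p = 0.0162). The 6 libraries were picked for likeness in these same data, so calls within them or with the batch term are not read as passes. The cause of the other differences was not tested.

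Same-numbered EAE and PBS libraries deviated together for some numbers only, with correlations from -0.25 to 0.59 over 13952 mRNAs. Numbers 4 (0.59) and 8 (0.32), 2 of 8, correlated best with their own, and number 7 had 0.23. Because this did not hold across the numbers, they were not taken to pair mice. With the number as a replicate block, 150 mRNAs were higher and 367 lower, and the log2 fold change of Nefh was -0.21 (adjusted p = 0.0498 in edgeR). The block ended the call of Dpysl2 (adjusted p = 0.0591). The member with the lowest counts was Prph, with at most 57 per library.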
